A study of Mus musculus with 11 samples.

Results

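Mast cells and basophils carry granule proteases, the high-affinity IgE receptor and the enzyme that makes histamine, and 10 genes of that kind were followed here in cells grown from mouse monocytes: Mcpt1, Mcpt2, Mcpt8, Cpa3, Prss34, Gzmb, Fcer1a, Ms4a2, Gata2 and Hdc. Each was found by its symbol in 1 row of a table of 21860 genes, and 9 of the 10 were among the 13095 genes with a normalised count of at least 10 in at least 2 samples. The genes were chosen on their normalised counts in these 5 culture groups, with the differences between the groups known, so their levels and differences are given as a description, with no test. The confidence intervals printed with them do not allow for that choice and are not read as tests. Tests are given for 40 other genes of mast cells and basophils and for marker lists of neighbouring lineages, which were listed by function but also with earlier results of these data known.

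Both cell types arise from marrow progenitors in which the transcription factor Gata2 is active, and both store preformed mediators in granules. When antigen crosslinks IgE on the receptor FcεRI (α chain Fcer1a, β chain Ms4a2, signalling γ chain Fcer1g), the granules are released together with histamine, made by histidine decarboxylase (Hdc), and proteases. In the mouse, Mcpt1 and Mcpt2 are chymase-type proteases of mucosal mast cells, whose expression in cultured mast cells depends on TGFβ. Cpa3 is a carboxypeptidase of mast cells and of their progenitors with basophils, whereas Mcpt8 and Prss34 are proteases of basophils. Gzmb encodes granzyme B, best known from killer lymphocytes but also present in mast cells and basophils.

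The samples were bulk RNA-seq libraries of CD11b-low EpCAM+ cells sorted after 6 days of culture from mouse bone marrow monocytes, cells that model monocyte-derived Langerhans cells. GM-CSF (20 ng/ml) was in every one of the 11 culture media. One sample received it with Jag1 and nothing else (Jag1 only, n = 1). The other 10 were given TGFβ (5 ng/ml) together with IL-34 (8 µg/ml), either without further addition (TGFβ/IL-34, n = 2), with Jag1 (n = 3), with FICZ (n = 2) or with both (n = 3). Jag1 is a Notch ligand and was presented by the stromal line OP9-Jag1. FICZ, at a dose that is not given in the sources used here, is a ligand of the aryl hydrocarbon receptor (Ahr), called an agonist in the methods and an antagonist in the design text of the series. The labels describe all 11 cultures as grown with OP9 cells, but stromal transcripts were scarce in the cultures without Jag1, and whether those cultures held plain OP9 cells is not given in the sources used here. The effect of Jag1 therefore cannot be told apart from that of the stroma. The study used C57BL/6 mice and marrow of both sexes for its cultures, without naming the mice behind each sample or their age. The replicates carry 3 experiment codes that are not stated to be separate animals, so p-values measure only the spread between these samples.

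Normalised counts summed to between 21310445 and 27845052 per sample, and 1 read was worth 0.892 to 1.14 normalised counts, so a gene listed at 0 could hold up to 3 reads, or 2.68 to 3.42 normalised counts (counting error only). The 2 TGFβ/IL-34/FICZ libraries were the least alike of the replicate pairs. Their correlation across genes was 0.922, against 0.963 to 0.980 for the other pairs. Limma gave each an array weight of 0.151, against 0.616 to 2.42 elsewhere. In a group of 2 these weights are equal, so they do not tell which library departs. The first had the highest summed counts (27845052) and the fewest genes above 0 (13453, against up to 14498 elsewhere). Fits without the second rest on the first alone for that group. Of the genes that mark the sorted cells, Epcam, Itgax, Csf1r and the pan-leukocyte gene Ptprc were present in all 11 samples, at 657 or more. Itgam, the gene of CD11b, was also present, at 1245 to 19741, and the Langerhans gene Cd207 was at 1366 to 1784 in TGFβ/IL-34/Jag1 and at most 157 elsewhere. In bulk samples, fewer cells of a type and less RNA per cell cannot be told apart.

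By GRCm39 coordinates, 4 of the genes lie in the chymase and granzyme cluster of chromosome 14: Mcpt1 (chr14:56255428-56257841, + strand), Mcpt2 (chr14:56279498-56282099, +), Mcpt8 (chr14:56319623-56322730, −) and Gzmb (chr14:56496295-56499717, −), each with 5 exons in its canonical transcript. Prss34 (chr17:25517368-25519142, +) lies beside the tryptase genes. The others lie on other chromosomes: Cpa3 (chr3:20269774-20296362, −, 11 exons), Fcer1a (chr1:173048851-173054781, −), Ms4a2 (chr19:11592887-11601083, −), Gata2 (chr6:88170559-88184018, +) and Hdc (chr2:126435558-126461318, −, 12 exons). Of the 31-base words in the canonical Mcpt1 transcript, 6.71% also occur in another gene (3.46% in Mcpt2), and the share is 7.37% for Mcpt2, 4.26% for Ms4a2 and 1.35% for Gzmb, so a small part of these values rests on how the quantification divided shared reads.

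Since Gata2 is one of the genes, GATA letters were searched on both strands. The window ran from 250 bases before to 50 bases after the start of each canonical transcript. The letters were AGATAA, the same with a final G (AGATAG), and both of these with T as the first letter (TGATAA, then TGATAG). For Gata2 and Hdc the canonical start lies inside the gene coordinates given above, and other starts were not searched. A match was found for 7 of the 10 genes, against 28.8% of 21676 promoters of the table (on the gene strand only, 6 of the 10, against 15.9%). The 250 bases before the start are shown for 4 genes with a match that were low in TGFβ/IL-34/Jag1, and for Mcpt8 and Gzmb, which lie in the same cluster as Mcpt1 and Mcpt2 and have none. Capitals mark the GATA letters on either strand, and each sequence is written 5′ to 3′ along its gene, from chr14:56255178-56255427 (Mcpt1, + strand), chr14:56279248-56279497 (Mcpt2, +), chr3:20296363-20296612 (Cpa3, −), chr19:11601084-11601333 (Ms4a2, −), chr14:56322655-56322904 (Mcpt8, −) and chr14:56499718-56499967 (Gzmb, −) of GRCm39.
Mcpt1: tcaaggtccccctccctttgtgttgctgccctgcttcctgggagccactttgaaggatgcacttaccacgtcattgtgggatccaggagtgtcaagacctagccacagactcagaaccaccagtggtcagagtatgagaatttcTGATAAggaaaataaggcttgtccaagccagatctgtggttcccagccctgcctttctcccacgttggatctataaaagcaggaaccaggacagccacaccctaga
Mcpt2: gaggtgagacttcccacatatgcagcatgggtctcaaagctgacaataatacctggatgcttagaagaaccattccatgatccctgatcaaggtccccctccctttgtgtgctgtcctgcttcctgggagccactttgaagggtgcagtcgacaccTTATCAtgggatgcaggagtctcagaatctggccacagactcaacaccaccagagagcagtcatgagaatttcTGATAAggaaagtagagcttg
Cpa3: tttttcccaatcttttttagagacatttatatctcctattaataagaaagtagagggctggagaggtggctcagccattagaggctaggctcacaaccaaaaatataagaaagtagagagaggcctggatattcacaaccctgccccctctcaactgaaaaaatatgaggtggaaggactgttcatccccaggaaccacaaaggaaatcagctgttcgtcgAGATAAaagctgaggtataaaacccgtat
Ms4a2: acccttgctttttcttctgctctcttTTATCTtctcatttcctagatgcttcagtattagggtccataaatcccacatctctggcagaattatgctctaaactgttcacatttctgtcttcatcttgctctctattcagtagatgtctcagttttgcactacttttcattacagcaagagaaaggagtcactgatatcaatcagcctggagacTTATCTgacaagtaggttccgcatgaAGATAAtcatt
Mcpt8: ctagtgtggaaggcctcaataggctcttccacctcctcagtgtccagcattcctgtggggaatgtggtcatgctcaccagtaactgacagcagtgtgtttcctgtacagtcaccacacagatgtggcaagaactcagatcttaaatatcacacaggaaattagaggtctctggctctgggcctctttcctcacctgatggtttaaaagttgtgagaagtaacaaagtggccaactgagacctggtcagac
Gzmb: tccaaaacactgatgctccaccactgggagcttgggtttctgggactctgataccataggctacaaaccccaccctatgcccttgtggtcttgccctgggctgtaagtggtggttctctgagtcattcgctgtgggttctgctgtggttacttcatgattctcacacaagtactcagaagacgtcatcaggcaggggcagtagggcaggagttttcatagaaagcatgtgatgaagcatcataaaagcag

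The matches began at −106 in Mcpt1, at −94 and −21 in Mcpt2, at −29 in Cpa3 and at −224, −37 and −11 in Ms4a2. The TGATAA nearest the start sits in an identical stretch of 22 bases in Mcpt1 and Mcpt2, and its distance to the annotated start differs by 85 bases. Among the genes not shown, Fcer1a (−107), Gata2 (−116) and Prss34 (−31) held a match and Hdc held none. The core letters of the Ahr response element, GCGTG, were in none of the 10 windows, against 37.0% of all promoters. TGGGAA, bound by the Notch partner RBPJ, was in 4 of the 10 (26.0% of all), and the MITF letters CATGTG or CACGTG were in 3 (19.1% of all). On the gene strand only, they were in 1 (14.0% of all) and 2 (13.7% of all) of the 10. These matches describe the letters of the windows, not binding.

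The levels followed 2 patterns. Mcpt1, Mcpt2, Ms4a2, Gata2 and Cpa3 were present in TGFβ/IL-34 cultures, low when Jag1 was added, and not low in either group with FICZ. Mcpt8, Gzmb, Hdc and Prss34 were instead highest in cells given Jag1 and FICZ and in the single sample given Jag1 without TGFβ and IL-34. Summed over the 10 genes, normalised counts were 5412 to 5846 in TGFβ/IL-34, 695 to 922 in TGFβ/IL-34/Jag1, 8559.9 to 13747 in TGFβ/IL-34/FICZ, 9462 to 15859 in TGFβ/IL-34/Jag1/FICZ and 7471 in Jag1 only.

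**Figure D1:**
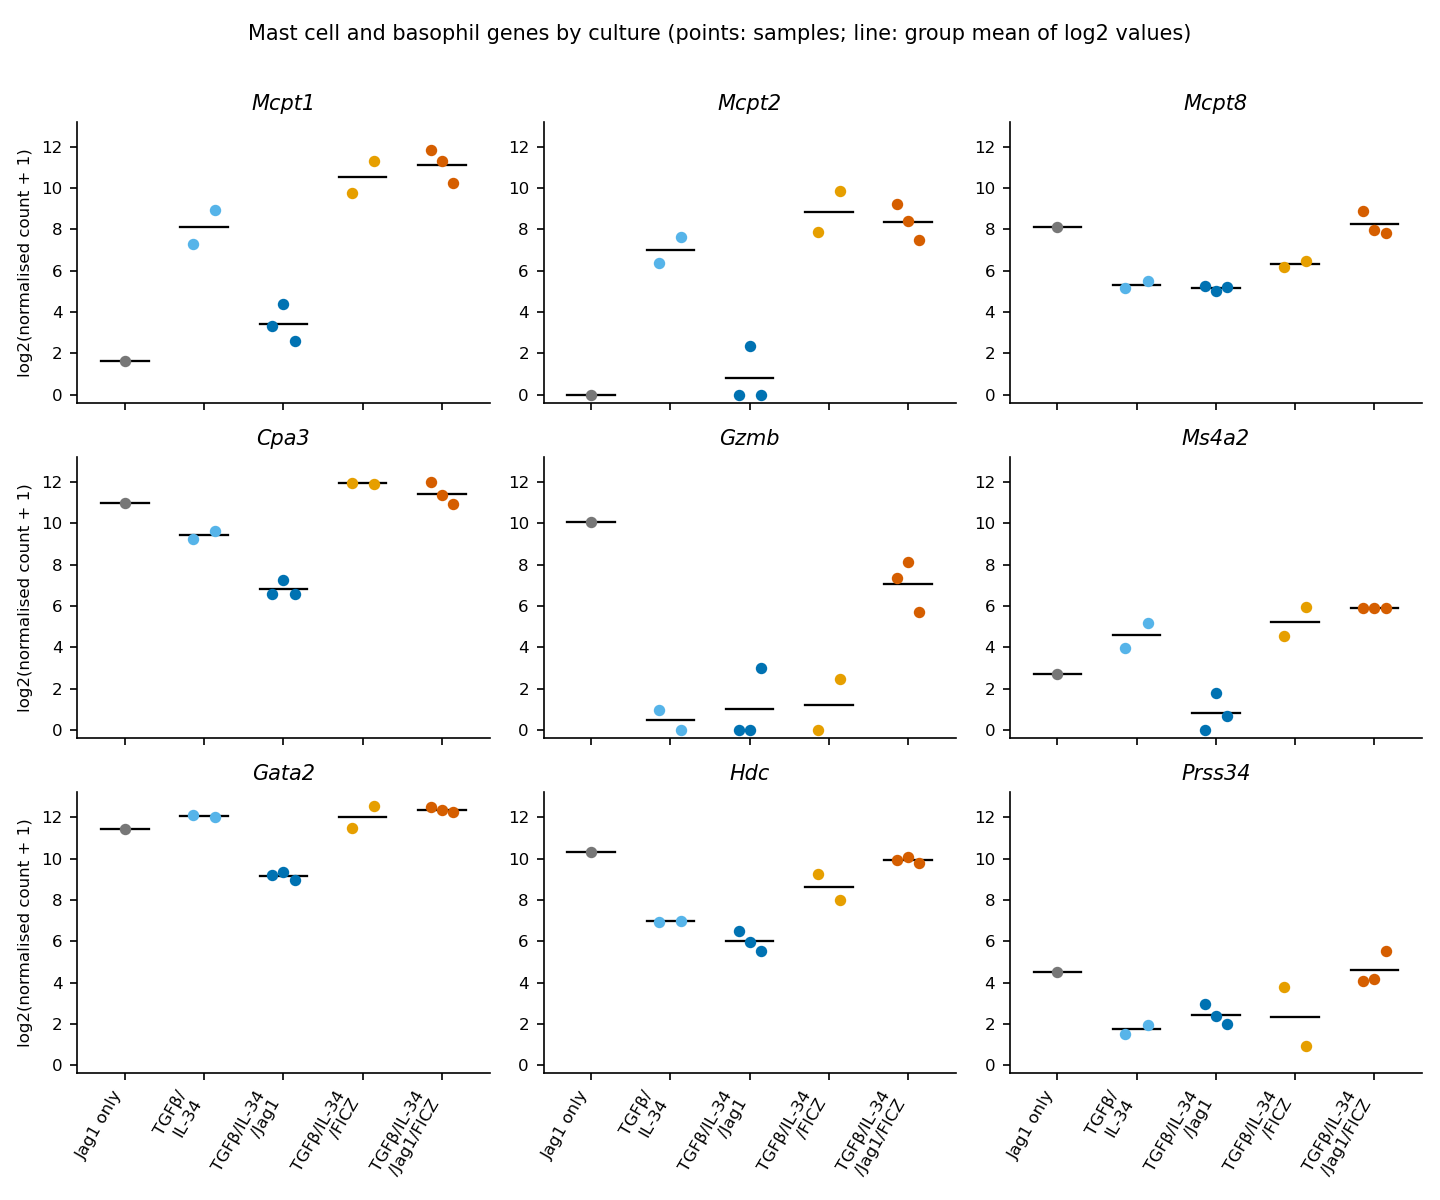
Level of 9 genes in each sample, as log2(normalised count + 1), with points for samples and a line for the mean of each culture group. Fcer1a, at 0 in all 11 samples, is left out. Mcpt1 and Mcpt2 are lowest in the Jag1 only and TGFβ/IL-34/Jag1 cultures, whereas Mcpt8, Gzmb and Hdc are highest in Jag1 only and TGFβ/IL-34/Jag1/FICZ.

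Among the chymase-type proteases, Mcpt1 was at 155 and 498 normalised counts in TGFβ/IL-34 and at 9.07, 19.8 and 4.96 in TGFβ/IL-34/Jag1. With FICZ it was at 858 and 2517 without Jag1, and at 3659, 2542 and 1209 with Jag1. Jag1 only gave 2.07, under 3 reads. The 2 groups without FICZ did not overlap with each other or with the groups given FICZ, while both FICZ groups overlapped. The mean was 29.0-fold lower with Jag1 than without it in the absence of FICZ, and 219-fold higher with FICZ than without it in the presence of Jag1. On the log2(value + 1) scale these differences were −4.70 (95% confidence interval −6.27 to −3.12) and 7.70 (6.29 to 9.11).

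Mcpt2 followed the same order at a lower level, with 81.0 and 195 in TGFβ/IL-34, 0, 4.17 and 0 in TGFβ/IL-34/Jag1, 232 and 924 in TGFβ/IL-34/FICZ and 596, 335 and 179 in TGFβ/IL-34/Jag1/FICZ. It was listed at 0 in Jag1 only. The Jag1 samples without FICZ thus held at most a few reads and lay below every other sample with TGFβ and IL-34, so no fold is given for them. Between the FICZ groups, with and without Jag1, values overlapped (log2 difference −0.49, interval −2.44 to 1.46).

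Cpa3, the carboxypeptidase, was at 607 and 781 in TGFβ/IL-34, 95.4, 152 and 95.7 in TGFβ/IL-34/Jag1, 3941 and 3889 in TGFβ/IL-34/FICZ, 4053, 2653 and 1984 in TGFβ/IL-34/Jag1/FICZ and 2053 in Jag1 only. It was 6.07-fold lower with Jag1 than without, 5.64-fold higher with FICZ than without when Jag1 was absent, and 25.3-fold higher when Jag1 was present. The pairs of groups in these 3 comparisons did not overlap, and the FICZ groups with and without Jag1 did. Unlike Mcpt1 and Mcpt2, Cpa3 in the Jag1 only sample lay within the range of the FICZ and Jag1 cultures.

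Of the basophil proteases, Mcpt8 was at 34.4 and 44.7 in TGFβ/IL-34, 37.7, 31.2 and 35.5 in TGFβ/IL-34/Jag1, and 72.7 and 87.3 in TGFβ/IL-34/FICZ. It reached 479, 253 and 228 in TGFβ/IL-34/Jag1/FICZ and 277 in Jag1 only. Jag1 without FICZ left its values overlapping those without Jag1 (log2 difference −0.17, interval −0.99 to 0.65), while with FICZ present it was higher with Jag1 (log2 difference 1.91, interval 1.09 to 2.73), and the groups did not overlap. Prss34 was low throughout, at 1.89 and 2.87 in TGFβ/IL-34, 6.81, 4.16 and 2.97 in TGFβ/IL-34/Jag1, 12.6 and 0.883 in TGFβ/IL-34/FICZ, 15.9, 16.8 and 45.1 in TGFβ/IL-34/Jag1/FICZ and 21.7 in Jag1 only. The TGFβ/IL-34/Jag1/FICZ samples lay above the other samples with TGFβ and IL-34, with log2 differences of 2.15 (interval 0.39 to 3.91) from TGFβ/IL-34/Jag1 and 2.24 (interval 0.28 to 4.21) from TGFβ/IL-34/FICZ.

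Gzmb was at most 6.91 normalised counts in every culture with TGFβ and IL-34 that lacked Jag1 or FICZ: 0.949 and 0 in TGFβ/IL-34, 0, 0 and 6.91 in TGFβ/IL-34/Jag1, and 0 and 4.44 in TGFβ/IL-34/FICZ. With both Jag1 and FICZ it was at 160.5, 280.0 and 51.5, and in Jag1 only at 1072. The group with both additions overlapped with none of the others. Its fitted log2 differences were 6.07 (interval 3.82 to 8.31) against TGFβ/IL-34/Jag1 and 5.84 (3.33 to 8.35) against TGFβ/IL-34/FICZ. They depend on the pseudocount because the lower groups were at or near 0. Of the 10 listed genes of the granzyme family, perforin and the granzyme B inhibitor Serpinb9, 4 were tested. With FICZ in the presence of Jag1, 3 of these 4 rose, where 10.9% of all genes tested rose. They were Gzma, another granzyme, by 5.05 on the log2 scale (limma adjusted p = 0.0013), Serpinb9 by 1.32 (adjusted p = 0.0197) and Gzmc by 2.98 (adjusted p = 0.0487). Gzma and Gzmc reached the filter only through the group with both additions (at most 9.19 and 6.17 elsewhere). Their calls were therefore favoured in advance and lend no support. The calls for Gzmc and Serpinb9 were lost in some alternative fits (limma adjusted p = 0.18 and 0.0892 without the second TGFβ/IL-34/Jag1/FICZ replicate), and that for Gzmc also with the replicate block (adjusted p = 0.0567). Perforin (Prf1), Gzme, Gzmf, Gzmg and Gzmk were at 0 in at least 10 of 11 samples.

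The receptor chains parted. Fcer1a, the IgE-binding α chain, was listed at 0 in all 11 samples. The β chain Ms4a2 was at 14.7 and 35.3 in TGFβ/IL-34, 0, 2.48 and 0.590 in TGFβ/IL-34/Jag1, 22.5 and 60.3 in TGFβ/IL-34/FICZ, 58.5, 59.6 and 58.6 in TGFβ/IL-34/Jag1/FICZ and 5.58 in Jag1 only. Every TGFβ/IL-34/Jag1 sample was therefore at or under 3 reads and below the other cultures. The γ chain Fcer1g, which serves several Fc receptors, was abundant in every sample (1426 to 4928) and passed the test in no comparison (log2 difference −0.34 ± 0.32 SE, limma adjusted p = 0.54, for FICZ with Jag1).

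Gata2 was at 4396 and 4164 in TGFβ/IL-34, 586, 646 and 504 in TGFβ/IL-34/Jag1, 2809.7 and 6006 in TGFβ/IL-34/FICZ, 5860.2, 5259 and 4822 in TGFβ/IL-34/Jag1/FICZ and 2759.5 in Jag1 only. The Jag1 samples without FICZ lay far below all others, by 7.40-fold against TGFβ/IL-34 and 9.18-fold against TGFβ/IL-34/Jag1/FICZ. FICZ without Jag1 left Gata2 within the spread of its replicates (log2 difference −0.06, interval −0.73 to 0.61). In this Gata2 differed from Mcpt1, Mcpt2 and Cpa3, whose FICZ samples without Jag1 were above both TGFβ/IL-34 samples.

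Hdc was at 121 and 126 in TGFβ/IL-34, 90.1, 61.9 and 45.3 in TGFβ/IL-34/Jag1, 611 and 257 in TGFβ/IL-34/FICZ, 976, 1072 and 885 in TGFβ/IL-34/Jag1/FICZ and 1281 in Jag1 only. No pair of the 4 compared groups overlapped. Its mean was 1.88-fold lower in TGFβ/IL-34/Jag1 and 3.52-fold higher in TGFβ/IL-34/FICZ than in TGFβ/IL-34. It was 14.9-fold higher in TGFβ/IL-34/Jag1/FICZ than in TGFβ/IL-34/Jag1.

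Counts past the threshold (limma, Benjamini-Hochberg adjusted p under 0.05) are given only to place the genes among all genes, since the genes were chosen with these comparisons known and nothing is read from them. For Jag1 without FICZ, 5 of the 9 tested genes were lower (Mcpt1, Mcpt2, Cpa3, Ms4a2 and Gata2) and none higher, where 3.96% of all genes tested were lower and 2.64% higher. For FICZ with Jag1, 8 were higher (all but Prss34), where 10.9% of all genes were higher and 6.71% lower. For FICZ without Jag1, 0 passed with limma, 4 had an unadjusted p under 0.05, and 0.0229% of all genes passed. For Jag1 with FICZ, Mcpt8 and Gzmb were higher (1.41% of all genes higher), and for the interaction, the difference of the FICZ effect with and without Jag1, Mcpt1, Cpa3 and Gata2 were higher (1.17%). These last 2 counts were 0 and 5 when replicate numbers were blocked, and 0 and 1 with the experiment code as a block. Without the second TGFβ/IL-34 replicate, 2 genes were lower for Jag1 without FICZ and 0 passed for the interaction. Without the second TGFβ/IL-34/FICZ replicate, 3 passed for FICZ without Jag1 and 8 for the interaction. The median log2 difference of the 9 genes was −2.62 for Jag1 without FICZ, 1.00 for FICZ without Jag1, 4.62 for FICZ with Jag1 and 0.66 for Jag1 with FICZ, where the medians of all genes lay between −0.02 and 0.05.

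**Figure D2:**
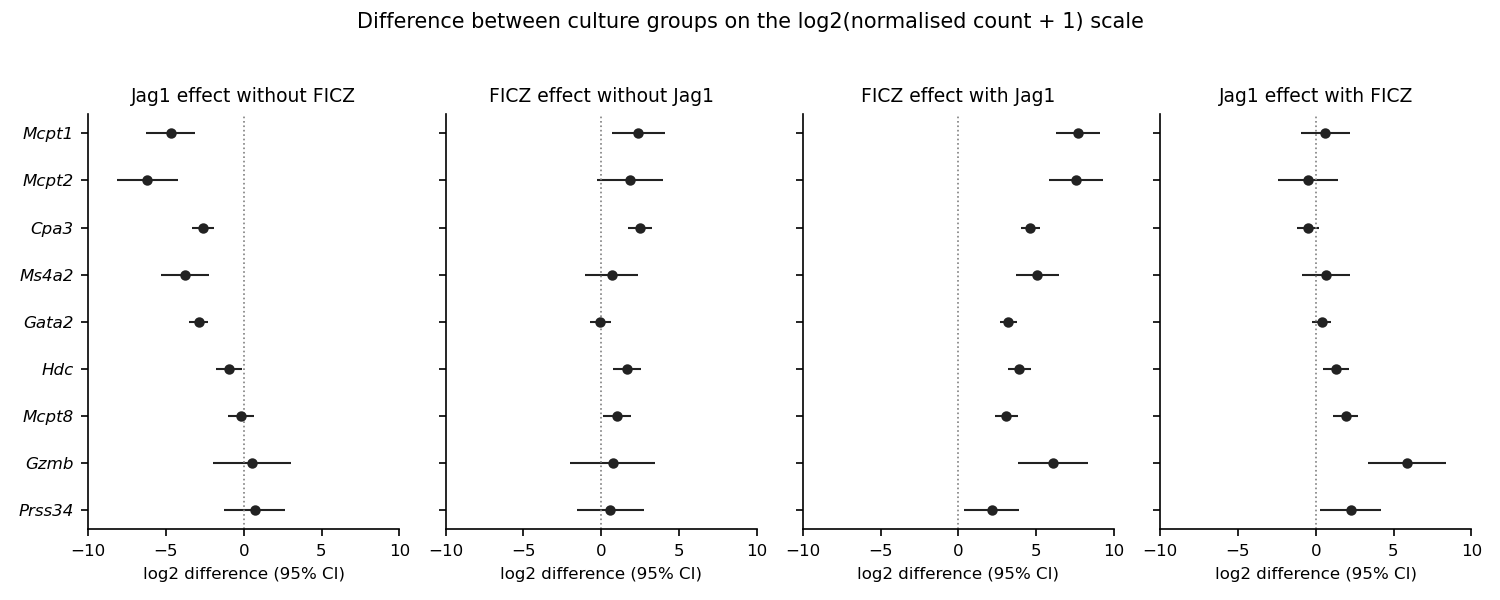
Log2 difference between culture groups for 9 genes, with 95% confidence intervals from limma, in 4 comparisons. For FICZ added to Jag1 all 9 estimates are above 0, from 2.15 to 7.70. For Jag1 added to FICZ the estimates of Mcpt1, Mcpt2, Cpa3, Ms4a2 and Gata2 lie between −0.50 and 0.66. The intervals do not allow for the choice of the genes on these differences.

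Compared per kilobase of canonical transcript, the order of the genes differed between cultures. In TGFβ/IL-34/Jag1/FICZ the mean level was 2436 normalised counts per kilobase for Mcpt1, 1962 for Cpa3 and 1484 for Gata2, whose sample ranges overlapped, followed by 383 for Mcpt8, 359 for Hdc and 349 for Mcpt2, which also overlapped. Gzmb (114), Ms4a2 (21.4) and Prss34 (21.2) were the lowest. In Jag1 only, Cpa3 led at 1391 per kilobase, Gata2 and Gzmb followed at 771 and 746, and Mcpt1 was at 2.04. In TGFβ/IL-34/Jag1, Gata2 led at 162 per kilobase and Cpa3 was at 77.5.

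Expression along the cluster on chromosome 14 was patchy. From Mcpt1 to Gzmb the table holds 13 genes, and 8 of them stayed at or below 14.7 in all samples: Mcpt9, Gzme, Gzmg, Gzmn and Gzmf were listed at 0 throughout, Mcpt4 reached 3.13, Gzmd 2.08 and Gzmc 14.7. Ctsg, the gene of the neutrophil protease cathepsin G, lies next to Mcpt8 and was at 10.3 and 17.2 in TGFβ/IL-34, 33.8, 17.6 and 11.9 in TGFβ/IL-34/Jag1, 197 and 113 in TGFβ/IL-34/FICZ, 665, 591 and 141 in TGFβ/IL-34/Jag1/FICZ and 221 in Jag1 only. It rose with FICZ in the presence of Jag1 (log2 difference 4.24 ± 0.61 SE, limma adjusted p = 0.00102). Around Prss34, within 100 kb on either side, the proteases Prss28, Prss29, Tpsab1, Tpsb2 and Tpsg1 reached at most 2.72 normalised counts, a level that Prss34 passed in 9 of 11 samples.

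**Figure D3:**
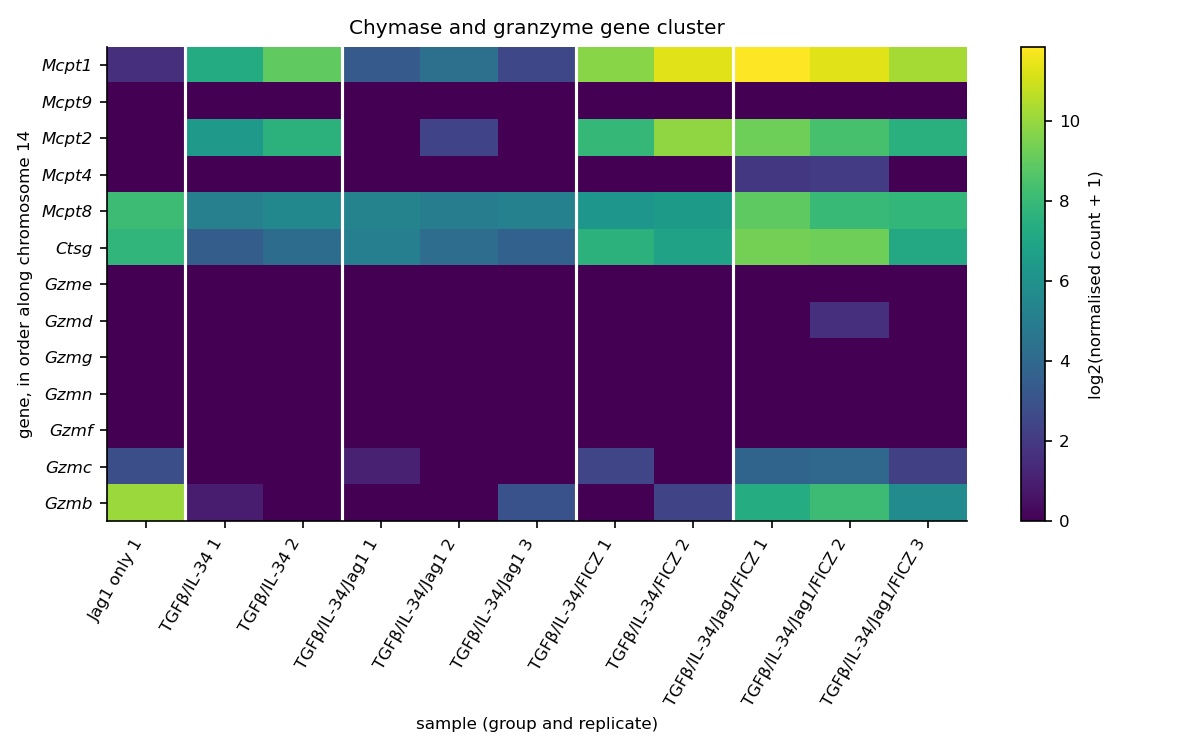
Level of the 13 genes of the chymase and granzyme cluster, in their order along chromosome 14 (rows), in the 11 samples (columns, white lines between groups), as log2(normalised count + 1) by colour. Mcpt1, Mcpt2, Mcpt8, Ctsg and Gzmb each reach 479 or more in some sample, and the genes between them stay at or below 14.7.

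Of the 40 other genes of mast cells and basophils, 39 were in the table and 27 were tested. When FICZ was added to Jag1 cultures, 12 of the 27 rose and 3 fell (median log2 difference 0.54, against −0.008 for all genes), where 10.9% of all genes tested rose and 6.71% fell. Of the receptors and signalling genes, 4 of 8 rose: Itga2b, the αIIb integrin, which went from a range of 509 to 543 to one of 4423 to 5568 (log2 difference 3.21 ± 0.15 SE, limma adjusted p = 1.44e-06), Il1rl1, the IL-33 receptor (3.73, adjusted p = 0.00502), the basophil receptor Cd200r3 (4.14, adjusted p = 0.011) and the adaptor Lat (3.90, adjusted p = 0.00425). The stem cell factor receptor Kit was at 945 to 2302 in all 11 samples and did not pass (0.33 ± 0.29 SE, adjusted p = 0.51).

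Among the mediators, 5 of 8 rose and 1 fell. The monoamine transporter Slc18a2, which loads histamine into granules, went from 34.3 to 41.5 up to 253 to 823 (3.53, limma adjusted p = 0.000273). The cytokine genes Il13 (4.40, limma adjusted p = 0.00055) and Il4 (3.70, adjusted p = 0.00398) rose to at most 36.9 and 18.7 normalised counts, from at most 1.16. Il4 reached the filter only through the group with Jag1 and FICZ (at most 9.17 elsewhere), so its call was favoured in advance. Serglycin (Srgn), the proteoglycan that holds granule proteases, rose by 1.37 (adjusted p = 0.00136) and the leukotriene enzyme Alox5 by 0.88 (adjusted p = 0.00409). The prostaglandin D2 synthase Hpgds moved the other way, from 1489.6 to 3871 down to 660.1 to 926 (−1.75, adjusted p = 0.00618).

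Of the regulators, 3 of 11 rose and 2 fell. The partners of Gata factors Tal1 (4.41, limma adjusted p = 0.00486) and Lyl1 (5.35, adjusted p = 6.69e-05) rose, as did Runx1 (1.46, adjusted p = 0.017), while Mitf, a mast cell regulator, fell (−0.996, adjusted p = 0.0143), as did Stat5a (−0.79, adjusted p = 0.0461). The calls for Mitf, Runx1 and Stat5a were lost in some of the fits that left out 1 replicate (highest adjusted p = 0.063, 0.069 and 0.19), and that for Stat5a also with the replicate block (adjusted p = 0.0584). Gata1 was not tested and was at most 4.45 outside the TGFβ/IL-34/Jag1/FICZ samples, which held 24.2, 8.36 and 8.23.

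For Jag1 without FICZ, 4 of the 27 fell and 0 rose (median −0.28, against −0.004 for all genes), where 3.96% of all genes tested fell and 2.64% rose. They were Itga2b (−1.96, limma adjusted p = 0.00015), Cd200r3, from 245 and 212 to 8.72, 17.5 and 0 (−5.34, adjusted p = 0.0128), Slc18a2 (−1.84, adjusted p = 0.0351) and Lyl1 (−2.11, adjusted p = 0.0392). With either TGFβ/IL-34 replicate left out, 1 of the 4, Itga2b, passed. For FICZ without Jag1 and for Jag1 with FICZ, limma called 0 of the 27, with 5 and 4 at an unadjusted p under 0.05. Without the second TGFβ/IL-34/FICZ replicate, 9 were higher and 2 lower for the first comparison, and 2 higher and 4 lower for the second. The interaction passed for Itga2b (1.96, limma adjusted p = 0.00631) and Il13 (4.40, adjusted p = 0.0445). Of 19 alternative fits, 2 lost the interaction call for Itga2b and 16 that for Il13. The fit without the second TGFβ/IL-34 replicate was among those for both genes.

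**Figure D4:**
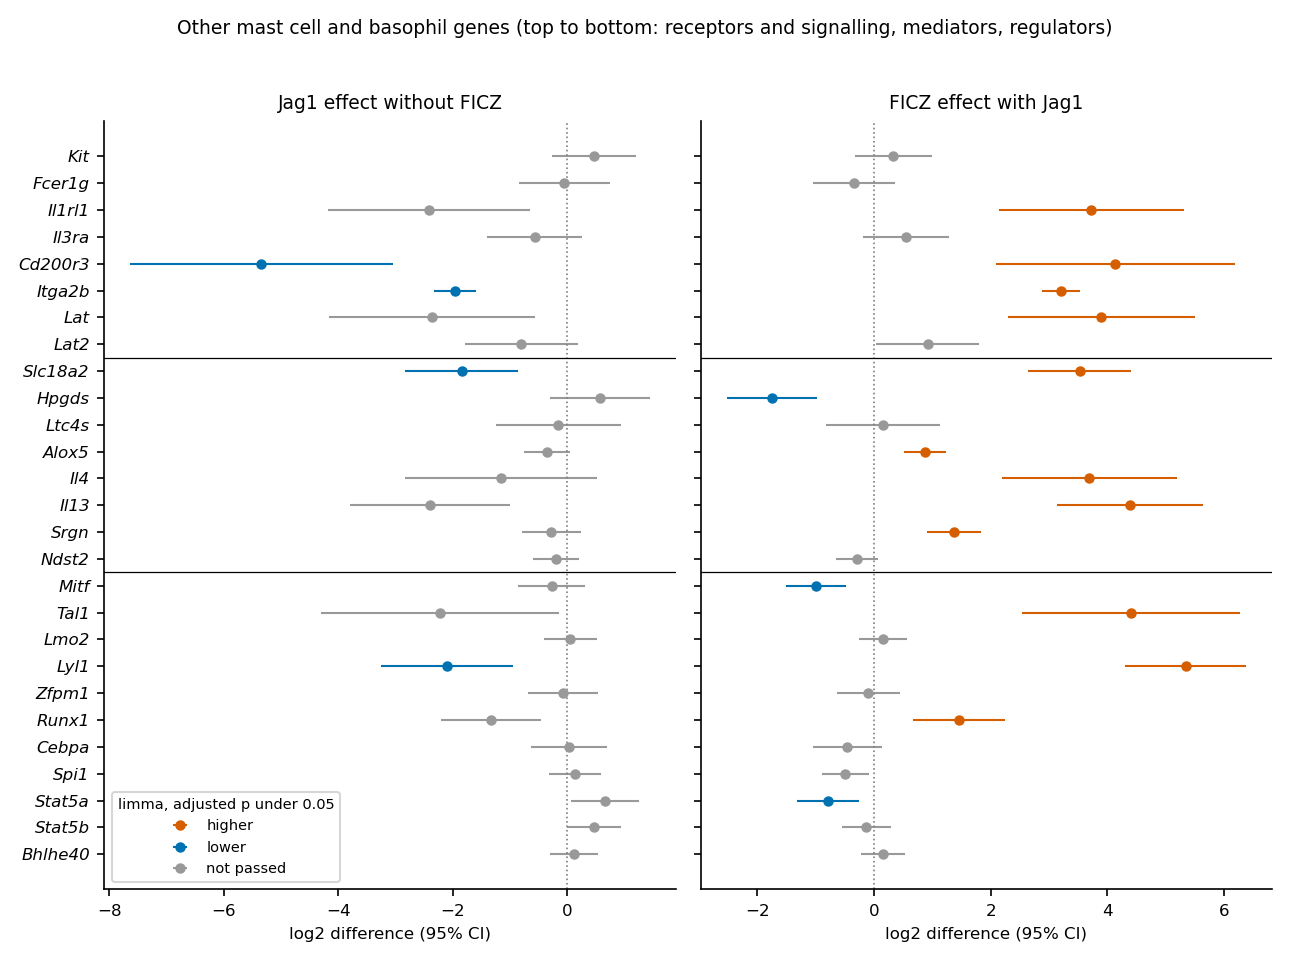
Log2 difference with 95% confidence interval for the 27 tested genes of receptors and signalling, mediators and regulators, for Jag1 without FICZ (left) and FICZ with Jag1 (right), on separate horizontal scales. Orange marks the 12 genes that rose, blue those that fell (4 on the left and 3 on the right), and grey those that did not pass the test.

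Several defining genes of connective tissue mast cells were low or listed at 0. The tryptases Tpsab1, Tpsb2 and Tpsg1 reached at most 2.06 normalised counts, the chymase gene Cma1 was at 6.45 to 16.8 in TGFβ/IL-34/Jag1/FICZ and at most 7.89 elsewhere, and Mrgprb2 and Rgs13 were listed at 0 in all 11 samples. None of the 7 other mast cell proteases in the table reached the filter. With Fcer1a also at 0, the libraries held part of the mast cell and basophil genes, and the cells are not named by them here.

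Markers of other granulocyte lineages moved with the genes in the same samples. With FICZ in the presence of Jag1, 6 of 8 tested neutrophil progenitor markers rose, where 10.9% of all genes tested rose. Among them was the elastase gene Elane, from 9.07, 0 and 4.97 to 3050.1, 3694 and 2094 (log2 difference 9.52, limma adjusted p = 3.15e-05). The summed level of the list was 194 to 320.3 in TGFβ/IL-34/Jag1 and 7216 to 11855 in TGFβ/IL-34/Jag1/FICZ. Mpo and Ly6g, which define promyelocytes and mature neutrophils, were at most 27.2 and 11.4. Of the eosinophil markers, 4 of 5 tested rose, among them Epx (4.87, adjusted p = 0.00243) and Siglecf (4.69, adjusted p = 0.000289), with sums of 59.3 to 186 against 1196 to 2388, while Ccr3 was at most 3.45. Prg3, also among those that rose, reached the filter only with the samples of TGFβ/IL-34/Jag1/FICZ. In Jag1 only, where Mcpt8, Gzmb and Hdc were high, the eosinophil sum was 38.9 and the neutrophil progenitor sum 526. T and NK cell markers summed to 46.9 to 208 in all samples. Of the 3 tested, Cd3g (5.43, limma adjusted p = 0.00165) and Nkg7 (3.60, adjusted p = 0.005) rose, to at most 82.0 and 40.4, while Cd3e, Ncr1 and Eomes were at most 6.71. Cd8a, also tested, went the other way without passing (−0.87, adjusted p = 0.28) and was at 33.8 to 177 in the 11 samples. For Jag1 without FICZ, Elane (−5.23, limma adjusted p = 0.0039) and Siglecf (−5.22, adjusted p = 0.000828) fell, and Elane did not pass without the second TGFβ/IL-34 replicate (adjusted p = 0.0626). The part of these lineages in the levels of the mast cell and basophil genes was not tested.

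Stroma markers moved with Jag1. Their summed level was 12.8 to 22.0 in TGFβ/IL-34, 23.4 to 38.0 in TGFβ/IL-34/FICZ, 391 to 1054 in TGFβ/IL-34/Jag1, 679 to 4629.6 in TGFβ/IL-34/Jag1/FICZ and 661 in Jag1 only. Of 7 tested, 5 rose with Jag1 without FICZ (2.64% of all genes rose) and 6 with FICZ (1.41% of all genes rose). All but Pdgfrb reached the filter only through cultures with Jag1, so these calls were favoured in advance. Dcn was listed at 0 throughout. The 6 calls with FICZ were all lost with array weights (limma adjusted p = 0.338 for Fbln2 to 0.689 for Bgn) and with only the groups compared. Of the 5 without FICZ, Bgn was lost with the replicate block (adjusted p = 0.0539), and Bgn and Col3a1 without the second TGFβ/IL-34 replicate (0.212 and 0.172). The call for Bgn without FICZ was kept with the experiment code of the descriptions as block. FICZ in the presence of Jag1 changed 1 of the 7, Pdgfrb (2.23, limma adjusted p = 0.00514), where 10.9% of all genes rose. The listed megakaryocyte and erythroid markers passed in no comparison (0 of 3 tested by limma, 0 to 3 at an unadjusted p under 0.05, summed level 32.9 to 541). That list does not hold Itga2b, which was counted with the mast cell and basophil receptors. Of the plasmacytoid dendritic cell markers, Siglech fell with FICZ in the presence of Jag1 (−5.93, adjusted p = 0.00116), as did Klk1 (−3.95, adjusted p = 0.0102). Siglech rose with Jag1 without FICZ (4.14, adjusted p = 0.0314). Siglech and Klk1 reached the filter only through TGFβ/IL-34/Jag1 (at most 5.49 and 7.83 elsewhere), so these calls were favoured in advance. Of the sorted cell markers, Cd207 (−6.27, adjusted p = 0.000908) and Csf1r (−1.88, adjusted p = 0.00583) fell with FICZ in the presence of Jag1, and for Jag1 without FICZ Epcam rose (1.15, limma adjusted p = 0.0412) and Adgre1 fell (−1.13, adjusted p = 0.0388). These 3 calls for Jag1 without FICZ were lost with either TGFβ/IL-34 replicate left out (highest adjusted p = 0.218 for Siglech, 0.296 for Epcam and 0.247 for Adgre1). Their part was not tested.

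**Figure D5:**
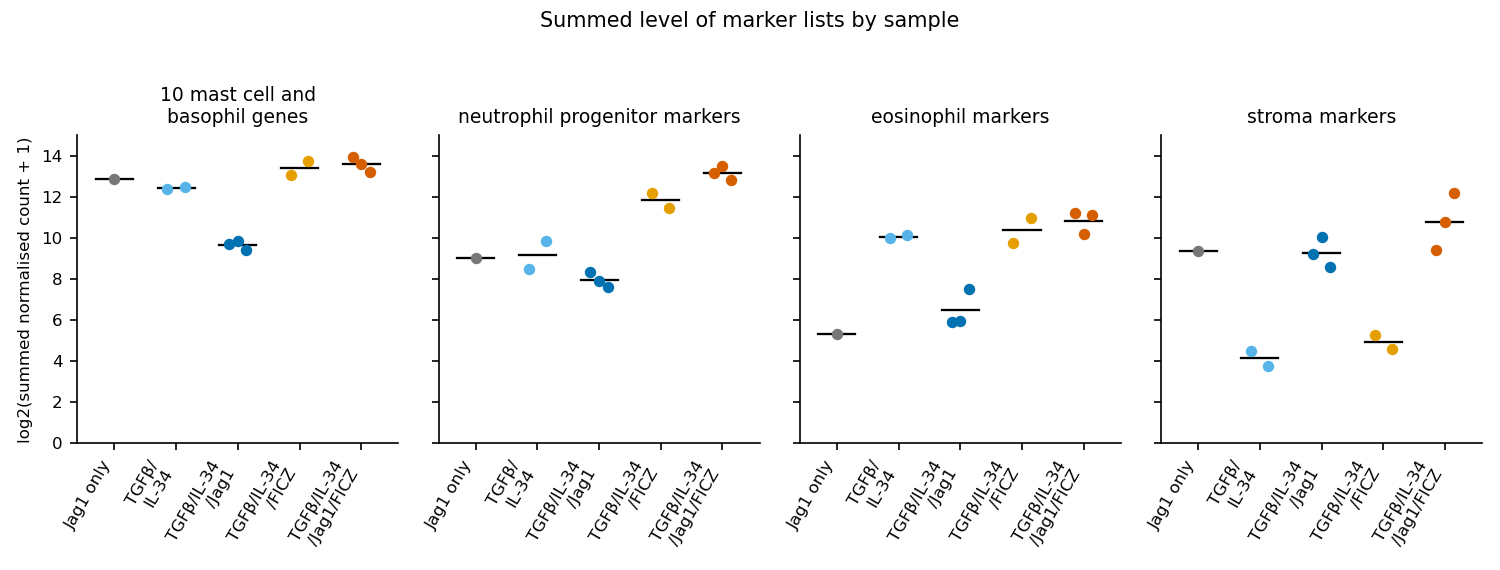
Summed normalised count of the 10 mast cell and basophil genes and of 3 marker lists in each sample, as log2(sum + 1), with a line for the mean of each culture group. The neutrophil progenitor and eosinophil sums are low in TGFβ/IL-34/Jag1 (at most 320.3 and 186) like the sum of the 10 genes, and the stroma sum is high in each group with Jag1.

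The genes whose levels ran most alike over the 11 samples were found by Pearson r of log2(value + 1) among all tested genes, as a description, since samples of 1 group share their culture. Mcpt1 and Mcpt2 ran together (r = 0.98), and both ran with Nop56 (0.98 each) and Gulp1 (0.98 each). Gata2 ran closest with Reck (0.99), Cd93 (0.99) and the receptor gene Klra2 (0.98). Cpa3 ran with Cst7 (0.98) and P2rx1 (0.98), and Ms4a2 with Slc43a3, Slc24a3 and Car12 (0.98 each). Mcpt8 ran with Dnmt3l (0.98), Thbs1 (0.97) and Igf1r (0.96), Gzmb with Enpp2, Ap3b1 and Jade2 (0.97 each), and Hdc with Ube2w, Vat1 and Cenpq (0.98 each). Prss34 had no gene above 0.92 (Upp1). Within the 9 genes, Mcpt8 ran with Hdc (0.92) and Gzmb (0.89), whereas Mcpt2 with Gzmb (0.04) and Mcpt2 with Prss34 (0.02) were the least alike.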

How the data were processed

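RNA-seq libraries of 11 sorted cell samples were quantified by the authors with salmon against the Ensembl transcript model of GRCm39, summed per gene with tximport and scaled between samples with DESeq2. The deposited normalised count of each gene, a signal scaled for depth, was used here. Versions, read filters and strand settings are not given in the sources used here. Scaled salmon estimates are not whole reads for genes with several transcripts, so no count test was run.

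Differences were tested with limma 3.58.1 (R 4.3.3; lmFit, contrasts and eBayes with trend, two-sided) on log2(value + 1) over all 11 samples, with 1 mean per group and 6 residual degrees of freedom. Of 21860 genes, the 13095 that reached 10 in 2 or more samples entered the test, and p-values were adjusted by Benjamini-Hochberg over them per contrast (threshold 0.05). Fold changes of low genes are understated by the pseudocount of 1. The fit was tested on simulated counts with the same dispersion for every gene and library. That run does not cover the unlike TGFβ/IL-34/FICZ pair.

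Named were the 10 genes, the genes of the lists that passed or define a cell type, their chromosomal neighbours and the 3 genes most like each, of which 1 is not reported here. Members and lists were chosen with earlier results of these data known. The worth of 1 read was estimated from 1361 single-transcript genes. Gene positions and promoters were read from GRCm39 with GENCODE vM39 (21676 identifiers matched). The alternatives tried were pseudocounts of 0.5 and 4, array weights, quantile normalization, no filter, only the groups compared, blocks by replicate number or experiment code, and leaving out each replicate. In the cultures with Jag1, with and without FICZ, replicate numbers follow the experiment codes, and deviations of same-numbered samples correlated at 0.153, 0.122 and 0.166. They thus pair these samples, and the block left 8 of 9 genes past the threshold, a count from which nothing is read.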

Additional observations from a re-analysis of the deposited data

Results flagged for a closer look

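In the main fit, the effect of FICZ differed between cultures with and without Jag1 for 4 listed genes. They were 2 of the 27 tested other mast cell and basophil genes, 1 of 8 neutrophil progenitor markers and 1 of 5 eosinophil markers. Of all genes tested, 1.17% were higher in this comparison. The difference itself was tested (limma interaction, Benjamini-Hochberg adjusted). Of 19 alternative fits, 2 lost the call for Itga2b, 16 that for Il13, and 10 each those for Siglecf and Elane. Only the Itga2b call therefore held in most of them. On the log2 scale, the FICZ effect was larger with Jag1 by 1.96 ± 0.23 SE for Itga2b (adjusted p = 0.00631), 4.40 ± 0.89 for Il13 (adjusted p = 0.0445), 4.94 ± 0.84 for Siglecf (adjusted p = 0.0348) and 6.28 ± 1.13 for Elane (adjusted p = 0.0382). For Mcpt1, Cpa3 and Gata2 the same difference was 5.30 ± 1.00, 2.12 ± 0.44 and 3.26 ± 0.39, given as a description, since these genes were chosen with their group differences known. The TGFβ/IL-34/Jag1 samples were the lowest of the groups with TGFβ and IL-34 for these genes. Each effect without Jag1 rests on 2 samples per group, and without the second TGFβ/IL-34 replicate none of the 7 genes passed the threshold.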

How the results depend on the processing

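For FICZ with Jag1, 8 or 9 of the 9 genes passed under every alternative, and for Jag1 without FICZ 5 or 6 passed, except 2 without the second TGFβ/IL-34 replicate (range with 1 replicate left out, 2 to 5). For FICZ without Jag1 the count of 0 became 1 with quantile normalization and ranged from 0 to 3 with 1 replicate left out. For Jag1 with FICZ the count of 2 became 1 with a pseudocount of 0.5 and 0 with no filter, with only the groups compared, with either block and with array weights, and ranged from 0 to 3 with 1 replicate left out. For the interaction the count of 3 became 5 with the replicate block and 1 with no filter, with the experiment block and with array weights, and ranged from 0 to 8 with 1 replicate left out. For TGFβ/IL-34/FICZ the replicate numbers follow the experiment codes, and deviations correlated at 0.059 and 0.058 with same-numbered TGFβ/IL-34/Jag1/FICZ samples. By the descriptions, those of TGFβ/IL-34 do not follow the codes. Its correlations by number (−0.007 to 0.047) therefore set different experiments side by side and do not measure pairing. The replicate block moved no other of these counts by over 1.5 times. Among the other mast cell and basophil genes, the replicate block ended the calls for Slc18a2 and Lyl1 (Jag1 without FICZ). It also ended those for Stat5a (FICZ with Jag1) and Il13 (interaction), and added Runx1 (Jag1 without FICZ). In comparisons with TGFβ/IL-34, this block joins samples of different experiments. With the experiment code of the descriptions as block, the calls for Lyl1, Stat5a and Il13 also ended, Runx1 was also added, and the call for Slc18a2 was kept. The experiment code of 1 sample differs between its description and the deposited sample table. A block with the table's code, added after seeing the data, gave counts of 0 for Jag1 with FICZ and 4 for the interaction. The 9 genes were chosen with these differences known, so their counts describe the fits and nothing is read from their stability.

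Log2 differences that changed sign were small or rested on 1 library. For Jag1 without FICZ, Mcpt8 went from −0.17 to 0.095 with quantile normalization and ranged from −0.36 to 0.013 with 1 replicate left out (0.013 without the second TGFβ/IL-34 replicate), and Gzmb ranged from −0.48 (without the third TGFβ/IL-34/Jag1 replicate) to 1.01. For FICZ without Jag1, leaving out the first or the second TGFβ/IL-34/FICZ replicate gave 0.49 or −0.61 for Gata2, −0.83 or 2.03 for Prss34, 1.96 or −0.48 for Gzmb and 1.36 or −0.023 for Ms4a2. For Jag1 with FICZ it gave −0.17 or 1.38 for Mcpt1, −1.48 or 0.50 for Mcpt2, −0.034 or 1.35 for Ms4a2 and −0.18 or 0.91 for Gata2. The cause was not tested. A group left with 1 sample was assumed to vary like the others. At this depth, values under 3 reads (all of Ms4a2 and 2 of 3 of Mcpt2 and Gzmb in TGFβ/IL-34/Jag1) cannot be told from 0.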
